A study of Mus musculus with 4 samples.

Results

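The axon guidance ligands and receptors are the ephrins, Eph receptors, semaphorins, plexins, neuropilins, netrins, Unc5 receptors, Robo receptors and Dcc. They were found by gene symbol among the probe sets that the array's annotation pairs with a single gene. A probe set is a group of short DNA probes that report on one transcript. The symbols matched 58 probe sets of 45 genes, out of 10833 probe sets with 1 gene symbol. One of the 45, Unc50, shares only the first letters of its name with the Unc5 receptors, is known for the trafficking of nicotinic acetylcholine receptors, and is described apart. The symbols matched 0 probe sets of Slit genes or Nrp2, which are not analysed here.

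Hippocampal RNA of the left side, from male mice 12 months old, was measured on 4 Affymetrix arrays. The 2 control arrays hold RNA of nontransgenic C57B6/SJL mice, and the 2 APPSw arrays hold RNA of Tg2576 mice, which overexpress amyloid precursor protein carrying the Swedish mutation. The transgene is driven by a prion protein gene promoter, and the line is a widely used model of amyloid deposition. The labels do not say that the animals were littermates. The p-values rest on the spread between these arrays, which limma moderates by that of all kept probe sets. Part of the spread may be technical.

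Guidance molecules steer growing axons in the embryo and remain in the adult brain, where many act at synapses. Ephrins are held in the membrane of one cell and bind Eph receptor tyrosine kinases on the next, and both sides can signal. Semaphorins are secreted or membrane-bound and act through plexins, to which the secreted class 3 members mostly gain access through neuropilins. Netrin attracts axons through Dcc and repels them through Unc5 receptors, and Robo receptors bind Slit proteins.

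The arrays differed in the markers of neighbouring tissue. The summed signal of 7 kept choroid plexus genes was 25932 and 16646 on the control arrays, 141387 on APPSw 1 and 20293 on APPSw 2, and all 7 genes were highest in APPSw 1. Of 8 kept genes of meninges and fibroblasts, 7 lay above 0 in the comparison, and their summed signal was 22627 and 27813 on the control arrays, 34995 on APPSw 1 and 30619 on APPSw 2. Of 12 marker genes of hippocampal principal neurons on the array, 11 were kept, and 10 of these 11 were lower in APPSw mice, with a median log2 difference of -0.40 and summed signals of 66584 and 57093 on the control arrays and 52792 and 45038 on the APPSw arrays. All 8 kept oligodendrocyte genes were lower, with a median of -0.29. Against the control mean their median was -0.086 on APPSw 1 and -0.433 on APPSw 2. All 5 kept neocortical genes were higher, with a median of 0.34, or 0.195 on APPSw 1 and 0.492 on APPSw 2. Astrocyte genes were divided, with 4 above 0 and 4 below, as were interneuron genes, with 4 above and 5 below. Over all kept probe sets 47.3% lay below 0 and 52.7% above. No marker of any list was at 0 on any array. In whole tissue, fewer cells of a type and less RNA per cell cannot be told apart.

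Of the 58 guidance probe sets, 38 from 32 genes passed the filter on dim signals, a geometric mean signal of 565 over the 4 arrays, and 20 were left out. No guidance probe set passed limma's test of APPSw against control (0 of 38 with an adjusted p under 0.05), and 0% of all 7453 kept probe sets did. At an unadjusted p under 0.05 by limma there were 3, or 7.89%, beside 8.05% of all kept probe sets. Of these, 1 was higher, beside 4.72% of all, and 2 were lower, beside 3.33%. Without control 1 the 3 became 0, without control 2 they became 1, without APPSw 2 they became 1, and without APPSw 1 there were again 3.

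The guidance probe sets were divided evenly around 0, with 20 above and 18 below. Both APPSw arrays lay above both controls for 6 of the 38 (15.8%), where 22.2% of all kept probe sets did so, and below both controls for 8 (21.1%), where 19% did so. With a log2 difference of at least 0.32 required too, 4 were higher (10.5%, beside 12.3% of all) and 3 lower (7.89%, beside 9.54%). The median log2 difference of the 38 was 0.013, and that of all kept probe sets was 0.018. The median size of the difference, whatever its sign, was 0.19 in both. The control arrays differed from each other by a median of 0.24 over the guidance probe sets and 0.19 over all kept ones. A group difference compares means of 2 arrays and a control difference compares single arrays, so these sizes are not on equal terms. For 10 of the 38 (26.3%) the group difference was larger than both within-group differences, beside 27.7% of all kept probe sets.

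The intervals give the precision of these differences. The 95% interval of limma's difference lay within 2-fold in either direction for 31 of the 38 (81.6%), and for 81.2% of all kept probe sets. For the other 7 (Efna2, Ephb3, Plxna1, Plxnd1, Robo1, Sema6c and a probe set of Sema7a) a 2-fold difference in at least one direction lies within the interval.

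The 3 guidance genes with an unadjusted p under 0.05 were Efna2, Epha7 and Sema5b. Their promoters are shown because these members had the smallest p by limma. Each line gives the 300 bases from 250 before to 50 after the gene's start on the plus strand of GRCm38.p6, from RefSeq, 5′ to 3′. Capitals mark the GC box GGGCGG, the motif of SP-family factors, or its reverse complement.
Efna2: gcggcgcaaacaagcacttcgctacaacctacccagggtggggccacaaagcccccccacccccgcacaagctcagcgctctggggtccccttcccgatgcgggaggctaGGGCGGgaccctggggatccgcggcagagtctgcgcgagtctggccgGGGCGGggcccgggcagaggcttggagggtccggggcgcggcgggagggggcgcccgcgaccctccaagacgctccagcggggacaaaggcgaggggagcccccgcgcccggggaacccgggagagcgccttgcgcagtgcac
Epha7: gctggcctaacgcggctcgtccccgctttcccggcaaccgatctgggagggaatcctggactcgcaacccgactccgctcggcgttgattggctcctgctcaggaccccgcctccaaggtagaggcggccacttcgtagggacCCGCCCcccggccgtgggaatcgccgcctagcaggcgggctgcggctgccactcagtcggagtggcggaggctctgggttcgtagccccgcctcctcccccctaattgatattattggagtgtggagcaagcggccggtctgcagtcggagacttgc
Sema5b: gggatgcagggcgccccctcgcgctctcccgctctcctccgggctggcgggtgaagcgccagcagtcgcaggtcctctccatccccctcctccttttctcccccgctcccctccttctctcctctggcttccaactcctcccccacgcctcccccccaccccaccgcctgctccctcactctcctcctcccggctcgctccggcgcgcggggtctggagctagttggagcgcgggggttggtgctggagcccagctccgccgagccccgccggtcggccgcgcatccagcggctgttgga
The Efna2 window is chr10:80179232-80179531, the Epha7 window chr4:28812881-28813180, which is the first listed of 2 starts, and the Sema5b window chr16:35541112-35541411. Efna2 holds 2 GC boxes, Epha7 1 and Sema5b 0, and their GC contents are 74.7%, 67.0% and 73.0%. Of the 44 guidance genes other than Unc50, 37 matched the promoter table by symbol. Their median GC content was 64.3%, beside 52.7% over all 27025 genes of that table, and their median CpG count was 23 beside 7. For these and the following shares, that table was not narrowed to genes on the array or kept by the filter. A GC box on either strand stood in 75.7% of the 37 and in 35.9% of all promoters. The CCAAT box (CCAAT) stood in 27% beside 37.9%, the TATA box (TATAAA) in 2.7% beside 14.2%, and the cyclic AMP response element (TGACGTCA) in 2.7% beside 1.88%. Both strands were searched and each motif was counted by itself, so matches can overlap. Epha7 also holds 2 CCAAT boxes, and Efna2 and Sema5b hold 0.

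Among the ephrins, the ligands of Eph receptors, Efna2 and Efnb1 lay above both controls on both APPSw arrays, and Efna3 and 1 of the 2 kept Efnb3 probe sets lay below. Efna2 encodes ephrin-A2, an EphA ligand held in the membrane by a lipid anchor. Its signals were 478 and 796 on the control arrays and 964 and 1272 on the APPSw arrays. Both APPSw arrays were above both controls, and control 1 lay under the filter's signal of 565. The group means were 637 ± 225 (SD, n = 2) and 1118 ± 218 (SD, n = 2), with the geometric mean 1.797-fold higher in APPSw. The log2 difference of 0.85 (SE 0.30, 95% interval 0.11 to 1.58) had an adjusted p of 0.609 by limma. It was 0.48 without control 1 and 1.21 without control 2.

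Efna3, an ephrin-A of hippocampal astrocytes that signals to EphA4 on dendritic spines, had signals of 12946 and 13602 on the control arrays and 12761 and 10721 on the APPSw arrays. The groups did not overlap, but the difference of -0.18 in log2 was smaller than the 0.25 between the 2 APPSw arrays. Efnb3, a transmembrane ephrin-B, had signals of 13327 and 13938 on the control arrays and 12722 and 11490 on the APPSw arrays by one probe set. Its other probe set gave 5990 and 5477 against 5491 and 4478, so both lay below 0, by -0.17 and -0.21. Efnb1 had 963 and 904 on the control arrays and 1093 and 1094 on the APPSw arrays, a log2 difference of 0.23 (SE 0.17, adjusted p = 0.706 by limma), with no overlap. Efnb2, a ligand of EphB4 in vessels and of EphB receptors at synapses, had -0.05, with APPSw 1 below and APPSw 2 above both controls. Efna1, Efna4 and Efna5 were left out as dim.

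Among the Eph receptors, Epha7 was lower in APPSw mice with almost no spread within either group. Epha7 encodes an EphA receptor of forebrain neurons. Its signals were 5673 and 5847 on the control arrays and 4192 and 4221 on the APPSw arrays. The groups did not overlap, and the arrays of a group were at most 0.04 apart in log2. The control mean was 5760 ± 122 (SD, n = 2) and the APPSw mean 4207 ± 20.2 (SD, n = 2). The log2 difference of -0.45 (SE 0.17, 95% interval -0.86 to -0.04) had an adjusted p of 0.609 by limma, and was -0.43 to -0.47 with each array left out in turn. The dimmer Epha7 probe set, left out by the filter, had 303 and 396 on the control arrays and 162 and 194 on the APPSw arrays, also with no overlap. Epha7 is a neuronal gene, and the principal neuron markers were lower in the same arrays; their part in this difference was not tested.

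Epha6, another EphA receptor, had signals of 2359 and 2817 on the control arrays and 2214 and 1985 on the APPSw arrays, a log2 difference of -0.30 (SE 0.19, adjusted p = 0.664 by limma), with no overlap. It was -0.17 without control 2. Epha4, the receptor that binds both ephrin classes, had -0.15 with overlapping groups, since the 2 controls differed by 0.59. Epha8 had 0.17 in log2, and its 2 controls also differed by 0.59. Epha5 had 2188 and 1740 on the control arrays and 2154 and 2107 on the APPSw arrays by its kept probe set. That is a log2 difference of 0.13, while its dimmer probe set had 308 and 540 against 338 and 135. Of the EphB receptors, Ephb6, which lacks kinase activity, had -0.08 and 0.15 by its 2 probe sets. Ephb3 had signals of 972 and 648 on the control arrays, 1296 on APPSw 1 and 496 on APPSw 2. The Ephb3 arrays of the APPSw group enclosed both controls, and its log2 difference was 0.01. Epha2 and Epha3 were left out as dim.

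**Figure D1:**
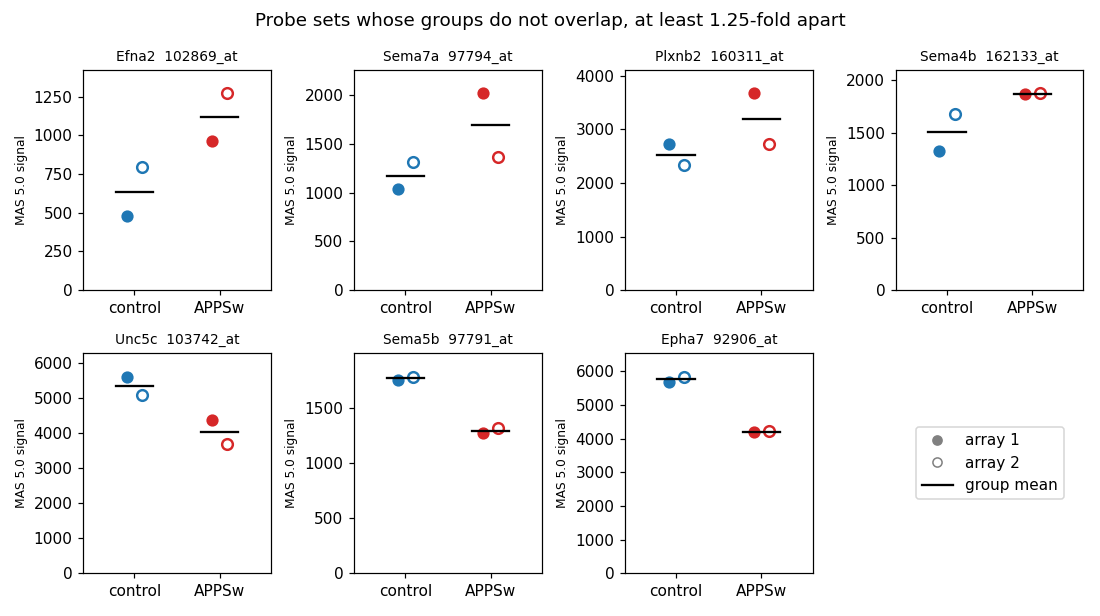
Signals of the 7 guidance probe sets whose groups do not overlap and differ by a log2 of at least 0.32, with a linear axis from 0 in MAS 5.0 signal units for each; filled circles are array 1, open circles array 2 and lines the group means. Efna2, Sema7a, Plxnb2 and Sema4b are higher in APPSw, Unc5c, Sema5b and Epha7 lower, and none of the 7 passed the adjusted test.

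Among the semaphorins, 3 of the 12 kept probe sets lay above both controls on both APPSw arrays and 3 below. In class 4, 2 of the 5 kept probe sets lay above both controls and 1 below. In classes 5 and 6, 2 of the 4 kept probe sets lay below both controls. Over all kept probe sets 22.2% lay above both controls and 19% below. Sema5b, a membrane-bound class 5 semaphorin with thrombospondin repeats, had signals of 1751 and 1784 on the control arrays and 1268 and 1315 on the APPSw arrays. The groups did not overlap and each was tight, at 0.03 and 0.05 in log2 between its 2 arrays. The group means were 1767 ± 23.7 and 1292 ± 33.0 (SD, n = 2 each). The log2 difference of -0.45 (SE 0.17, 95% interval -0.86 to -0.04) had an adjusted p of 0.609 by limma.

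The class 6 semaphorins are transmembrane ligands of plexin-A receptors. Sema6d had 2009 and 2139 on the control arrays and 1779 and 1640 on the APPSw arrays, a log2 difference of -0.28 (SE 0.17) with no overlap. Sema6c had -0.32 and Sema6b -0.13, both with overlapping groups. Sema6c was -0.08 without control 2 and -0.022 without APPSw 2, and -0.63 without APPSw 1. The 4 kept class 5 and 6 probe sets, those of Sema5b, Sema6b, Sema6c and Sema6d, were thus below 0 in 4 of 4, with a median of -0.30. Of the probe sets of these classes left out as dim, Sema5a had 0.29 and Sema6a -0.72, each with no overlap. Without APPSw 1, Sema6b was 0.084. Over all kept probe sets 47.3% lay below 0.

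Of 5 kept class 4 probe sets, 4 lay above 0, beside 52.7% of all kept probe sets, and 2 of the 4 belong to Sema4b. Sema4b, a class 4 transmembrane semaphorin, had signals of 1327 and 1679 on the control arrays and 1868 and 1875 on the APPSw arrays by one probe set, a log2 difference of 0.33 (SE 0.19, adjusted p = 0.651 by limma) with no overlap. It was 0.16 without control 1 and 0.50 without control 2. Another probe set, whose suffix marks probes shared with related sequences, gave 0.22 with overlap, and a dim one had 367 and 310 against 720 and 728. All 3 Sema4b probe sets thus lay above 0. Sema4a, known as a semaphorin of immune cells and the retina, had 2912 and 3494 on the control arrays and 3732 and 4034 on the APPSw arrays, a log2 difference of 0.28 (SE 0.19, adjusted p = 0.679 by limma). It was 0.15 without control 1. Its dim probe set went the other way, with 402 and 551 on the control arrays and 132 and 173 on the APPSw arrays. Sema4d, the plexin-B1 ligand, had 0.17 with overlapping groups. The member of class 4 that lay below 0 was Sema4f, with signals of 6958 and 6802 on the control arrays and 5545 and 5797 on the APPSw arrays. Its groups did not overlap, and its log2 difference was -0.28 (SE 0.17, adjusted p = 0.653 by limma).

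Sema7a, the semaphorin with a lipid anchor, had signals of 1039 and 1310 on the control arrays, 2019 on APPSw 1 and 1362 on APPSw 2 by one probe set. The groups did not overlap, though APPSw 2 was close to control 2. The log2 difference was 0.51 (SE 0.26, adjusted p = 0.620 by limma), and 0.22 without APPSw 1. The choroid plexus markers were highest in that array, and their part in this difference was not tested. Its other probe set gave 5159 and 4280 against 5185 and 5103, a difference of 0.13. Of the secreted class 3 semaphorins, Sema3e was kept, with -0.21, and its 2 controls differed by 0.74. Sema3a, Sema3b, Sema3c and Sema3f were left out as dim, as were Sema5a and Sema6a.

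The plexins, the receptors of semaphorins, lay above the control mean mainly on APPSw 1. Over their 6 kept probe sets the median log2 deviation from the control mean was 0.43 on APPSw 1 and -0.04 on APPSw 2, where all kept probe sets had 0.02 on each. Plxnb2, the receptor of class 4 semaphorins, had signals of 2718 and 2339 on the control arrays, 3672 on APPSw 1 and 2729 on APPSw 2 by one probe set. The groups did not overlap, but APPSw 2 was barely above control 1. The log2 difference was 0.33 (SE 0.22, adjusted p = 0.679 by limma), and 0.11 without APPSw 1. The other Plxnb2 probe set had 1786 and 2082 on the control arrays, 2682 on APPSw 1 and 1830 on APPSw 2, a difference of 0.20, and -0.08 without APPSw 1. The choroid plexus markers were highest in APPSw 1 too; their part in the plexin values was not tested.

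Plxna2 followed the same order, with 1950 and 2106 on the control arrays, 2636 on APPSw 1 and 1939 on APPSw 2. Plxna1 had 1085 and 1874 on the control arrays, 2136 on APPSw 1 and 939 on APPSw 2, so its APPSw arrays enclosed both controls. Plxna3 was the steadiest of the plexins, with signals of 2922 and 3136 on the control arrays and 3125 and 2986 on the APPSw arrays and a log2 difference of 0.01 (95% interval -0.41 to 0.43). Plxnd1, the receptor of Sema3e, had 1016 and 1392 on the control arrays, 965 on APPSw 1 and 2037 on APPSw 2, the reverse order of Plxna1, Plxna2 and Plxnb2. Nrp1, the class 3 semaphorin co-receptor that also binds VEGF, had 7455 and 6035 on the control arrays and 6570 and 6702 on the APPSw arrays. Its log2 difference was -0.02, and 0.25 by its other probe set, which was high in APPSw 2 alone.

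**Figure D2:**
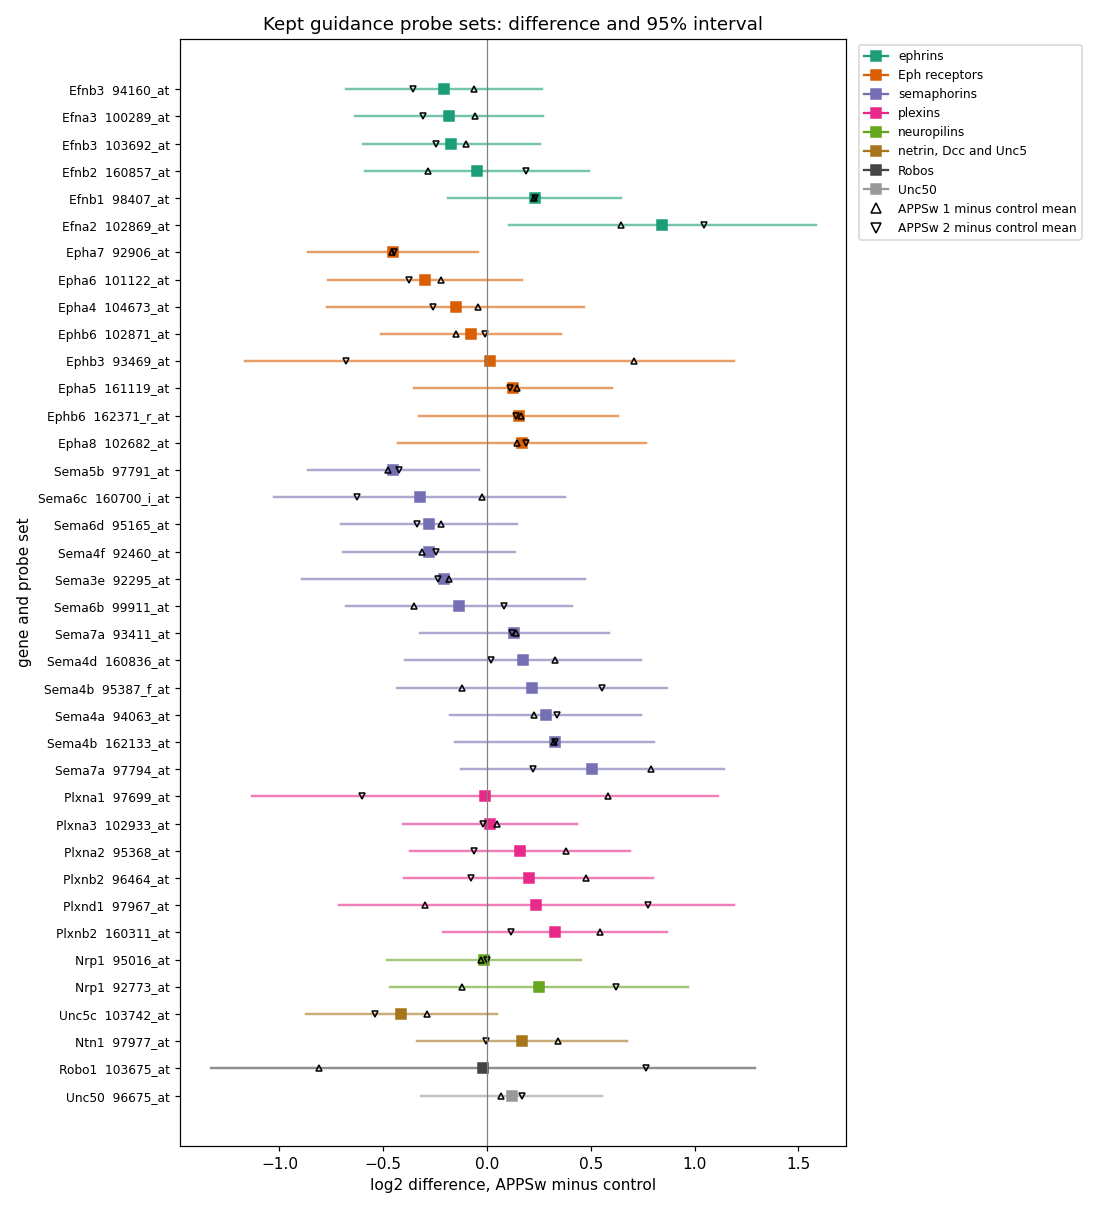
Log2 differences (APPSw minus control) of the 38 kept guidance probe sets, coloured by family, with limma's 95% intervals; triangles give each APPSw array against the mean of both controls. The intervals of Efna2, Epha7 and Sema5b lie off 0 before adjustment, and the triangles of Robo1, Ephb3, Plxna1 and Plxnd1 lie far apart on both sides of 0.

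Of the netrin system, Unc5c, a receptor through which netrin repels axons, was lower in both APPSw arrays. Its signals were 5613 and 5079 on the control arrays and 4376 and 3677 on the APPSw arrays. The groups did not overlap, with means of 5346 ± 377 and 4026 ± 494 (SD, n = 2 each). The log2 difference of -0.41 (SE 0.19, 95% interval -0.87 to 0.05) had an adjusted p of 0.612 by limma. It was -0.29 without APPSw 2 and -0.54 without APPSw 1. Principal neuron markers were lower in the same arrays, with medians against the control mean of -0.24 on APPSw 1 and -0.62 on APPSw 2. Their part in the Unc5c difference was not tested. Ntn1, the netrin itself, had 1640 and 1889 on the control arrays and 2232 and 1755 on the APPSw arrays, a difference of 0.17 with overlap, and -0.0040 without APPSw 1. Its other probe set and that of Dcc were left out as dim.

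Robo1, a Slit receptor, had signals of 886 and 1374 on the control arrays, 630 on APPSw 1 and 1876 on APPSw 2. The 2 APPSw arrays differed by 1.57 in log2 and enclosed both controls, so the group difference was -0.02 (95% interval -1.33 to 1.29). Robo3, which controls midline crossing of axons, was left out as dim. Unc50 had 11784 and 10468 on the control arrays and 11651 and 12486 on the APPSw arrays, a log2 difference of 0.12, and without it the counts of low p and of groups that do not overlap were the same.

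**Figure D3:**
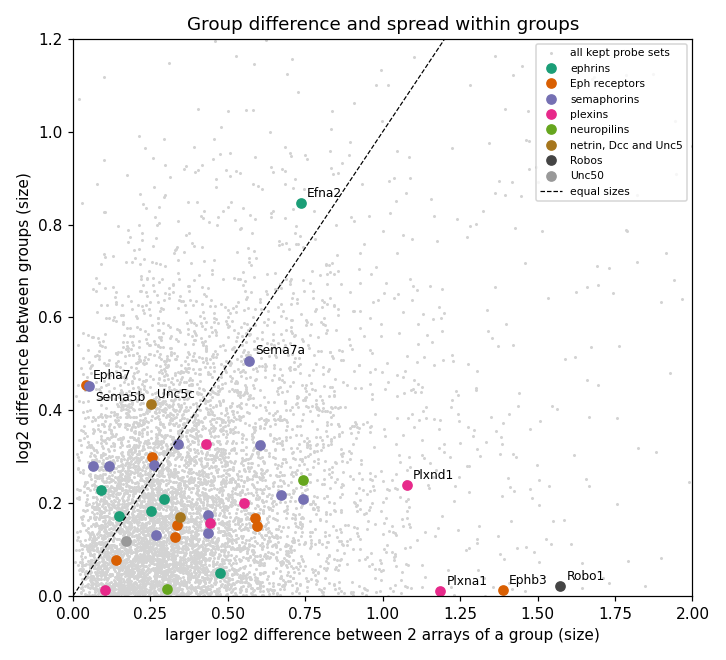
Size of the log2 difference between groups against the larger of the 2 within-group differences, for the guidance probe sets (coloured) and all kept probe sets (grey, 102 of which lie beyond the axes); the dashed line marks equal sizes. Epha7 and Sema5b have small within-group differences, and Plxna1, Ephb3, Plxnd1 and Robo1 have within-group differences above 1.

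Several probe sets of a gene gave a check within the arrays. Of 12 guidance genes with several probe sets, 5 had log2 differences of opposite sign (Epha5, Ephb6, Nrp1, Ntn1 and Sema4a). Where 2 probe sets of a gene were both kept, 2 of 6 genes disagreed in sign, Ephb6 and Nrp1, with differences between -0.08 and 0.25. Efnb3, Epha4, Epha7, Plxnb2, Sema3b, Sema4b and Sema7a had 1 sign throughout. The mean over probe sets moved Epha5 from 0.13 to -0.40 and Sema4a from 0.28 to -0.68.

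**Figure D4:**
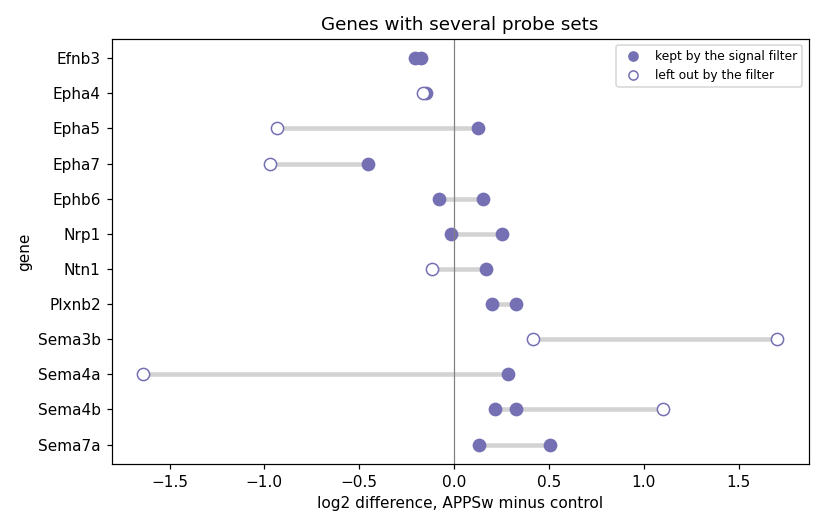
Log2 differences (APPSw minus control) by each probe set of the 12 guidance genes with several, with filled circles for kept and open circles for dim probe sets. The widest gap is that of Sema4a, from -1.64 to 0.28, and the 2 Epha7 probe sets both lie below 0.

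The filter left 20 dim guidance probe sets untested. Among them the groups did not overlap for 3 higher (15%, beside 25.8% of all dim probe sets) and 4 lower (20%, beside 10.7%). The higher ones were probe sets of Sema3b, Sema4b and Sema5a, and the lower ones of Efna1, Epha7, Sema4a and Sema6a. Efna1, an EphA ligand, had 329 and 588 on the control arrays and 125 and 192 on the APPSw arrays, a log2 difference of -1.51. Sema3b, a class 3 semaphorin, had 44 and 17 on the control arrays, 147 on APPSw 1 and 54 on APPSw 2 by the more variable of its probe sets. In a fit without the filter, 4 of the 58 had an unadjusted p under 0.05 by limma, beside 6.57% of all 12422 probe sets, and the lowest adjusted p of a guidance probe set was 0.569. These 4 were the dim probe sets of Efna1, Epha7, Sema4a and Sema4b, and none was among the 3 of the filtered fit.

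The remaining guidance pathway was read from 2 lists. Of 45 kept probe sets of signalling effectors (35 genes), 0 passed limma's adjusted test and 3 had an unadjusted p under 0.05, 2 higher and 1 lower, or 6.67% beside 8.05% of all. Their median log2 difference was 0.02. Rhoa, the small GTPase that mediates growth cone collapse, had 4831 and 4014 on the control arrays and 7166 and 7322 on the APPSw arrays by one probe set, a difference of 0.72 (SE 0.18, adjusted p = 0.599 by limma). Its other probe sets gave -0.0090 and 0.16. Enah, an actin regulator, had 604 and 602 on the control arrays and 965 and 1037 on the APPSw arrays, a difference of 0.73 (SE 0.17), by a probe set whose suffix marks shared sequence, and 0.02 by its other kept one.

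Tiam1, an activator of Rac, had 6321 and 5824 on the control arrays and 4295 and 4428 on the APPSw arrays, a difference of -0.48 (SE 0.17), while the other Tiam1 probe set gave -0.06. Src, a tyrosine kinase downstream of Eph receptors, had 858 and 233 on the control arrays and 1119 and 1245 on the APPSw arrays, a difference of 1.40 (SE 0.58) that was 0.46 without control 2 and 2.34 without control 1. Control 2 lay under the filter's signal of 565, as did the control group's geometric mean, so Src passed the filter through the APPSw arrays. Of 23 kept probe sets of co-receptors and other guidance systems (17 genes), 0 passed the adjusted test and 0 had an unadjusted p under 0.05 by limma, with a median of 0.01. The 4 genes with the smallest p there were Fzd3, a Wnt receptor, with 0.37, Ptch1, the hedgehog receptor, with -0.39, Ryk, a Wnt receptor of guided axons, with -0.77, and Ptpro, a receptor phosphatase, with -0.42. Ryk was -0.22 without APPSw 2 and -1.32 without APPSw 1, Ptpro was -0.20 without control 1, and other kept probe sets gave -0.07 for Ptch1 and 0.33 for Ryk, the latter also with a control mean under the filter.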

How the data were processed

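The authors computed the deposited signal intensities, on a linear scale, with MAS 5.0 and brought each array to a target of 2500, per the labels. The background settings are not stated in the sources used here. The 2% trimmed mean was 2501 on every array and array medians lay between 926 and 1033. The number of arrays limits the precision.

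From the 12488 probe sets, 66 manufacturer's controls were left out. Probe sets whose mean log2 signal lay under the 40th percentile were left out too, which kept 7453. The groups' log2 signals were tested two-sided by lmFit and eBayes of limma 3.58.1 (R 4.3.3), with 2 residual and 3.7 prior degrees of freedom and with Benjamini-Hochberg adjustment over the kept probe sets and a threshold of 0.05. Differences are APPSw minus control and SEs are moderated. With 2 arrays against 2, exact permutation allows no two-sided p under 0.333. Intervals are limma's at 95%. Tested on simulated data of this size, the fit recovered most 4-fold changes and few 2-fold ones.

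Gene names come from the platform annotation. Members with their arrays are those with groups that do not overlap and differ by a log2 of at least 0.32, the one with the highest mean signal per family, and genes whose probe sets disagree. Others are named with shorter values, but some outside this rule, such as Efna3, Epha6, Ephb3 and Plxna1, are given with all their signals too. For each pathway list the 4 probe sets with the smallest p are named. Some further probe sets were named after their values were seen. The members and lists were chosen with earlier results of these data known. The replicate numbers are shared between groups, but the labels do not say that they pair animals. The alternatives left out each array in turn, blocked on the replicate number, used quantile-normalized signals, a variance trend or averages over the probe sets of a gene, set a floor or a pseudocount of 250, and moved the filter to the 60th percentile or dropped it.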

Additional observations from a re-analysis of the deposited data

How the results depend on the processing

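No guidance or pathway probe set passed the adjusted threshold under any alternative, nor did any other probe set, and the lowest adjusted p of a guidance probe set by limma was 0.466, for Epha7 at the 60th percentile. With the stricter filter the guidance probe sets with both APPSw arrays above both controls fell from 6 to 3, with fewer probe sets tested. The share of all probe sets that did so was not computed under that filter or with an array left out. The median log2 difference of the guidance probe sets was then -0.032, beside -0.005 over all probe sets tested. It was 0.015 after quantile normalization, beside 0.002 over all, and -0.018 with no filter, beside 0.058. With the replicate block, the guidance probe sets at an unadjusted p under 0.05 numbered 1. Replicate-1 deviations of the groups correlated at -0.02, which cannot show whether the replicate numbers pair animals. With each array left out in turn, that count ranged from 0 to 3, probe sets above both controls from 12 to 13, those below from 13 to 14, which 1 array in a group makes easier, and the median from -0.026 to 0.015.

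Of the 38 guidance probe sets, 20 changed sign under at least one alternative, not counting averages over the probe sets of a gene. The 8 named pathway probe sets changed sign under none of these alternatives, but they were picked for their small p and their groups do not overlap. Leaving out an array cannot change the sign of such a probe set, so the 2 counts cannot be compared. Ephb3 was -0.085 and Nrp1 0.015 after quantile normalization, and Robo1 was 0.01 and Plxna1 0.00057 with the pseudocount. As means over probe sets, Epha5 was -0.40, Ephb6 0.038, Nrp1 0.12 and Sema4a -0.68. With an array left out, ranges that cross 0 were -0.13 to 0.46 for Epha8, -0.015 to 0.32 for the dimmer Ephb6 probe set, -0.17 to 0.14 and -0.12 to 0.62 for the Nrp1 probe sets, -0.038 to 0.064 for Plxna3, -0.58 to 0.16 for Sema3e and -0.45 to 0.15 for Epha4. They were -0.038 to 0.29 for Epha5, -0.68 to 0.71 for Ephb3, -0.81 to 0.77 for Robo1, -0.60 to 0.58 for Plxna1, -0.044 to 0.39 for Sema4d and -0.0043 to 0.27 for the brighter Sema7a probe set. They were -0.29 to 0.19 for Efnb2, -0.0040 to 0.34 for Ntn1, -0.064 to 0.38 for Plxna2, -0.076 to 0.48 for the dimmer Plxnb2 probe set, -0.35 to 0.084 for Sema6b, -0.30 to 0.78 for Plxnd1 and -0.12 to 0.55 for the Sema4b probe set of shared sequence. The cause was not tested. Counts over members were within 1.5 times without Unc50 and with 1 probe set per gene, both chosen after seeing the data.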

Other observations

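In 4 of the 38 kept guidance probe sets the 2 APPSw arrays lay at least 2-fold apart (Ephb3, Plxna1, Plxnd1 and Robo1), beside 3.61% of all kept probe sets. The 2 control arrays lay at least 2-fold apart in 0 of the 38, beside 2.11% of all. These genes were picked for their values, so the shares are a description. Ephb3 and Plxna1 were higher in APPSw 1, and Plxnd1 and Robo1 were higher in APPSw 2. The log2 differences, APPSw 1 minus APPSw 2, were 1.39 for Ephb3, 1.19 for Plxna1, -1.08 for Plxnd1 and -1.57 for Robo1.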
